A study of Mus musculus with 55 samples.

Results

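CTCF peaks called in the livers of TCPOBOP-treated Setd8-LKO mice were examined where both CTCF and the cohesin subunit Smc3 had been gained. Such a site was a CTCF peak of the Setd8-LKO list that overlapped, by at least 1 bp, no CTCF peak and no Smc3 peak of untreated wild type (WT) liver and overlapped a Smc3 peak of the Setd8-LKO list. Of the 20905 CTCF peaks of Setd8-LKO livers, 9912 met this rule and are called gained CTCF-Smc3 sites below. They were compared with 3432 CTCF peaks gained at positions that already held a WT Smc3 peak, with 4189 CTCF peaks gained without any Smc3 peak, and with 3372 kept peaks that overlapped a WT CTCF peak. Setd8-LKO mice carry a floxed exon 7 of Setd8 (gene symbol Kmt5a), the methyltransferase that places a single methyl group on histone H4 lysine 20, deleted by an Albumin-driven Cre and thus in hepatocytes. They received 3 mg/kg TCPOBOP, an agonist of the nuclear receptor CAR and a liver mitogen, 24 h before analysis, and the labels give 45 to 50 days of age for all samples, in the C57Bl6 background. The chromatin maps set Setd8-LKO + TCPOBOP against untreated WT, so genotype and treatment change together and cannot be told apart. The controls are labelled untreated, while the paper names corn oil as vehicle in its methods and DMSO in its Reporting Summary. The vehicle may thus differ between the groups as well. The libraries numbered 4 WT and 2 Setd8-LKO for CTCF, 3 and 2 for Smc3, 3 and 3 for acetylated H3 lysine 27 (H3K27ac), 3 and 5 for ATAC-seq, 4 and 4 for Lamin A/C and 2 and 2 for H4K20me3. The titles of the 4 WT Lamin A/C libraries repeat the names WT1 and WT2, so these libraries may not come from 4 mice. RNA-seq of whole liver covered 5 untreated WT, 5 WT + TCPOBOP and 4 Setd8-LKO + TCPOBOP libraries.

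CTCF is a zinc finger protein that binds a long, G+C-rich DNA element in an oriented manner. Cohesin is a ring complex of Smc1a, Smc3, Rad21 and a Stag subunit that is loaded onto chromatin, often near active promoters, and moves along DNA by loop extrusion until it meets CTCF, so that the factors usually share their positions. Cohesin also holds sister chromatids together after DNA replication. In liver, CTCF sites separate the domains of hepatocyte genes, and active promoters carry H3K27ac.

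The sites were of different kinds, and 9 windows around CTCF summits show them on the plus strand of GRCm38.p6 (mm10) as RefSeq gives it, chosen by peak strength among windows free of annotated UTRs, and not every strong site is printed. The first were promoter sites with the highest CTCF fold enrichment, at Sfpq (a splicing factor of paraspeckles), Relt (a receptor of the TNF receptor superfamily) and Rnpepl1 (an aminopeptidase-like protein), shown for their CG pairs, which are in capitals. The next were strong sites holding the CTCF core consensus without a mismatch, in an exon of the noncoding gene C130021I20Rik upstream of the homeobox gene Lmx1b, at the start of the noncoding gene Gm26901, and in intergenic DNA beside Hsbp1, with the consensus in capitals. The last were sites of the strongest Smc3 peaks, in Palm (paralemmin), in Irs2 (insulin receptor substrate) and in Ptpre (a receptor-type tyrosine phosphatase), again with CG pairs in capitals.
Sfpq, chr4:127022001-127022101: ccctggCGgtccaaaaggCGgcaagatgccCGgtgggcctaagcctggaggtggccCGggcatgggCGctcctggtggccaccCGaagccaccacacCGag
Relt, chr7:100863491-100863591: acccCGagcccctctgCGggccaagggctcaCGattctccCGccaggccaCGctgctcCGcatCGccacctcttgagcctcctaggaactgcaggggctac
Rnpepl1, chr1:92910668-92910768: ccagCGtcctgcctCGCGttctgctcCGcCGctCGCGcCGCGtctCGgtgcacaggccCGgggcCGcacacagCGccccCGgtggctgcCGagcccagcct
C130021I20Rik, chr2:33643186-33643386: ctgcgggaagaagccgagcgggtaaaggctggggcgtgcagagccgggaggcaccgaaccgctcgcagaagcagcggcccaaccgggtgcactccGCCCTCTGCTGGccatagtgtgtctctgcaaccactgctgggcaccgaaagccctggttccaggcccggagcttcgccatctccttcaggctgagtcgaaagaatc
Gm26901, chr1:7398267-7398467: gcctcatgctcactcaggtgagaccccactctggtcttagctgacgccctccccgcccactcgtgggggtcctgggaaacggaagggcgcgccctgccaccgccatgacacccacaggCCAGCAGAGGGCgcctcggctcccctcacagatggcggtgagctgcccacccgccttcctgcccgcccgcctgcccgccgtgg
intergenic near Hsbp1, chr8:119358925-119359125: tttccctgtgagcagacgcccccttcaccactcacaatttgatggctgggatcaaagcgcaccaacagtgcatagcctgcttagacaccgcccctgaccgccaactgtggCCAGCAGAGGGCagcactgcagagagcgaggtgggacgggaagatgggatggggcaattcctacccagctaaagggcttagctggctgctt
Palm, chr10:79794927-79795027: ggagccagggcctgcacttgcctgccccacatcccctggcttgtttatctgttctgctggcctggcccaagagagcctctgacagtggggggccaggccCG
Irs2, chr8:11005832-11005932: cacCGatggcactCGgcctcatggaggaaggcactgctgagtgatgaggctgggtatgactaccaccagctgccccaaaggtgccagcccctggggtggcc
Ptpre, chr7:135538582-135538682: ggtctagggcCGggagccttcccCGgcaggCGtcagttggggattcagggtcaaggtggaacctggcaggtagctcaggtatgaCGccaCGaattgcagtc

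The Rnpepl1 window held 15 CG pairs at 78.2% G+C, the Sfpq and Relt windows 7 each at 71.3% and 68.3%. The Palm and Irs2 windows, at the CTCF summits of the strongest Smc3 peaks, held 1 and 2 CG pairs. Their CTCF summits lay 1378 and 1295 bp from the summits of Smc3 peaks that were 2077 and 4696 bp long. The CTCF and Smc3 summits were 17, 1 and 69 bp apart at the C130021I20Rik, Gm26901 and Hsbp1 sites, where the consensus was intact.

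The strength of the peaks that chose the sites is given as a description. Peak strength is the fold enrichment that MACS2 gives for a summit over its local background. CTCF at gained CTCF-Smc3 sites was weak, with a median fold enrichment of 11.7 (quartiles 10.0 and 14.6, range 2.72 to 91.2, n = 9912), against 39.6 at kept peaks, 19.5 at peaks gained at WT Smc3 and 11.7 at peaks gained without Smc3. The overlapping Smc3 peak was nearer to the level of kept peaks, with a median of 40.8 against 56.1 at the 2192 kept peaks with a Smc3 peak. It was weaker than at the 2724 peaks gained at WT Smc3 with a Setd8-LKO Smc3 peak, which had a median of 82.1. The Smc3 value exceeded the CTCF value at 91.0% of the gained CTCF-Smc3 sites and at 46.4% of the kept peaks with a Smc3 peak. Peaks gained at WT Smc3 were like the sites in this. The median ratio of Smc3 to CTCF was 3.05 at the sites, 2.95 at those peaks and 0.94 at kept peaks. Over the whole Setd8-LKO lists the median fold enrichment was 29.5 for Smc3 and 13 for CTCF. The CTCF summit lay within 100 bp of the Smc3 summit at 52.6% of the sites and at 74.6% of kept peaks with Smc3, and it fell inside the Smc3 peak at 98.8% of the sites. In the list as a whole 83.9% of the Setd8-LKO CTCF peaks had no WT CTCF peak and 76% of the 21615 Setd8-LKO Smc3 peaks no WT Smc3 peak, and these are the contrasts the rule used. The level of the lists moved with the condition as well. Kept CTCF peaks had a median fold enrichment of 12.7 in WT and 39.6 in Setd8-LKO, and the highest value in the CTCF list was 31.3 in WT and 152 in Setd8-LKO, while the H3K27ac lists were alike in length (27983 WT and 27752 Setd8-LKO peaks). The part of this scale in the number of gained sites was not tested. With the Setd8-LKO CTCF and Smc3 lists cut from the top to the length of the WT lists, 1016 sites met the rule.

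**Figure D1:**
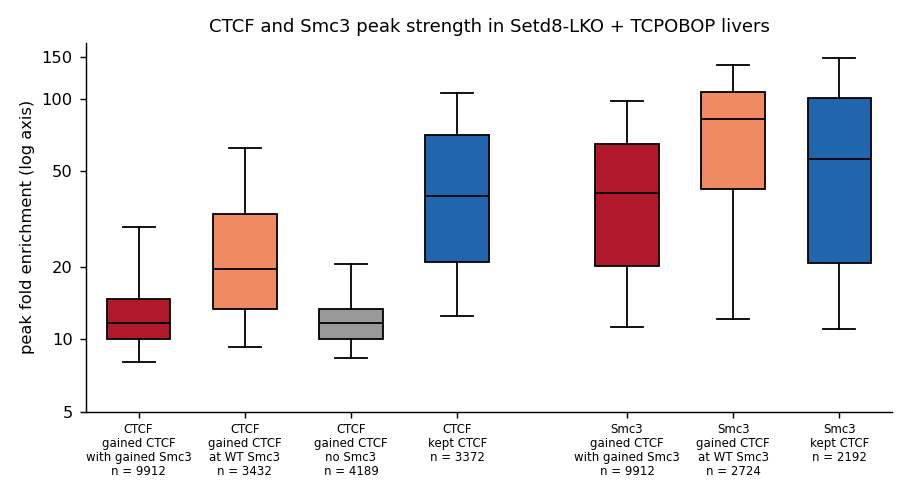
Fold enrichment of CTCF (left) and Smc3 (right) peaks of Setd8-LKO + TCPOBOP livers on a log axis, by class of CTCF peak, with boxes for quartiles, lines for medians and whiskers for the 5th and 95th percentiles over peaks. CTCF at gained CTCF-Smc3 sites has a median of 11.7 against 39.6 at kept peaks, while Smc3 has medians of 40.8 and 56.1. At peaks gained at WT Smc3 the Smc3 median is 82.1.

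The sites fell into 8948 Smc3 peaks, of which 8396 were gained as whole peaks and 552 overlapped a WT Smc3 peak at another point along their length. Thus 9272 sites (93.5%) lay in a fully gained Smc3 peak. A Smc3 peak held 1 site in 8072 cases, 2 sites in 802 and 3 or more in 74, with a maximum of 7. From the Smc3 side, 51.1% of the 16428 gained Smc3 peaks held such a CTCF site. The sites were rarely close neighbours of WT binding. The median gap to the nearest WT CTCF peak was 55370 bp, 17.6% lay within 10 kb of one, and 5.39% had a WT CTCF or Smc3 peak within 500 bp. Those just inside the rule were a site at Sdc1 (syndecan), which touched a WT Smc3 peak with a gap of 0 bp, one at the mitochondrial carrier gene Slc25a30 with a gap of 2 bp, and one on chromosome 1 (chr1:134556340-134556545) with a gap of 4 bp. Just outside stood peaks at Cobll1, Nelfa and Dgkd, which overlapped a WT Smc3 peak by 2, 2 and 9 bp.

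Gained CTCF-Smc3 sites were promoter sites in their majority. Of the 9912 sites, 7471 had an annotated transcript start within 1000 bp, a share of 75.4% (95% Clopper-Pearson interval 74.5 to 76.2), against 63.2% of peaks gained at WT Smc3, 24.8% of peaks gained without Smc3 and 44.0% of kept peaks. The difference from kept peaks was 31.4 percentage points (95% Newcombe interval 29.5 to 33.3), and that from peaks gained at WT Smc3 was 12.2 points (10.4 to 14.0). These intervals, like all intervals on shares given here, cover counting error only, since each condition had 1 list and the lists give no replicate spread. Summits in exons away from promoters made up 10.8% of the sites, introns 6.54% and intergenic DNA 7.24%, whereas 21.6% and 27.9% of kept peaks were intronic and intergenic. Smc3 was stronger at promoter sites, with a median fold enrichment of 50.0 against 18.5, 18 and 17.3 at exonic, intronic and intergenic sites, while CTCF differed little between them (medians of 11.7, 11.3, 12.6 and 12.4).

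The summits lay on the transcribed side of the start. Among 6931 sites with a CTCF summit within 1000 bp of a protein coding start, 67% of summits were downstream of it, at a median of 78 bp (quartiles -35 and 246). At kept peaks the arrangement was the opposite, with 69.1% of 1238 summits upstream and a median of -53 bp. Smc3 summits at the gained sites were 71.5% downstream, at a median of 91 bp, and those at kept peaks were balanced around 0 bp. In CTCF peaks gained without Smc3, 63.6% of summits near a start were downstream as well, so the downstream position was shared with a class that had no Smc3.

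**Figure D2:**
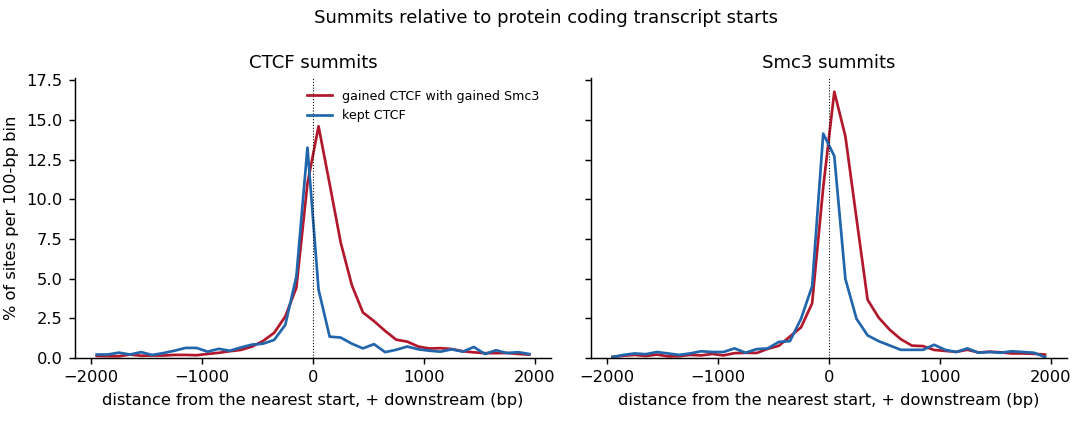
Percent of CTCF summits (left) and Smc3 summits (right) per 100 bp against the distance from the nearest protein coding transcript start in bp, positive downstream, for gained CTCF-Smc3 sites and kept peaks. CTCF summits of the gained sites have a median of 78 bp downstream, and those of kept peaks a median of 53 bp upstream.

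In all, 6529 of 21951 annotated protein coding genes (29.7%) had a gained CTCF-Smc3 site at a promoter. The share was 46.6% among the 11949 genes whose promoter carried a WT H3K27ac peak and 3.55% among the 8846 without a H3K27ac peak in any list. Over the 19 autosomes the number of sites followed the number of protein coding genes (Pearson r = 0.90 and Spearman rho = 0.92, a description over chromosomes of unequal length), from 34.6 sites per 100 genes on chromosome 14 to 62.4 on chromosome 8. The X chromosome had 84 sites for 948 genes, or 8.86 per 100 genes, and 1.27 kept peaks per 100 genes. The paper states that only male mice were used, so the X chromosome was unpaired, and the part of this in the X counts was not tested.

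The strongest promoter site lay in Rp9 at the promoter of 9530077C05Rik (chr9:22411289-22411813), with a CTCF fold enrichment of 91.2 and a Smc3 fold enrichment of 38.5. Avl9 followed (chr6:56714790-56715507) with 86.6 for CTCF and 114 for Smc3, then Sfpq with 79.5 and 65.1, Relt with 77.4 and 65.9, Srf (serum response factor, chr17:46555195-46556302) with 77.0 and 94.0, and Rnpepl1 with 76.2 and 61.0. All of these 6 promoters carried H3K27ac in both conditions. Away from promoters the strongest sites were the C130021I20Rik site (CTCF 84.5, Smc3 43.4), a site in an exon of Gm48356 near the histone gene Hist1h2bj (chr13:22050911-22051360, 79.5 and 24.9), and sites in Skor2 and in the noncoding gene AC119181.3 on chromosome 18 (75.8 and 71.6 for CTCF). Of these 4, the Skor2 site alone overlapped a Setd8-LKO H3K27ac peak, and the AC119181.3 site lay in Lamin A/C and H4K20me3 islands. The highest Smc3 values, 170 at Palm, 169 at Irs2, 168 at Ptpre and 166 at Rrbp1 (a ribosome-binding protein of the endoplasmic reticulum), went with CTCF values of only 10.0 to 16.6.

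H3K27ac marks active promoters and enhancers, and it was measured in libraries the rule did not use. A H3K27ac peak of Setd8-LKO overlapped 76.7% of the gained CTCF-Smc3 sites (75.9 to 77.6) and a WT peak 62.5% (61.5 to 63.5), so that most sites were acetylated already in untreated WT liver. The share in Setd8-LKO was 59.9% for peaks gained at WT Smc3, 2.75% for peaks gained without Smc3 and 36.7% for kept peaks. Acetylation in the Setd8-LKO list alone was found at 1483 sites, or 15.0% (14.3 to 15.7), against 2.27%, 1.07% and 2.58% in the other classes, and acetylation in the WT list alone at 72 sites. Compared with kept peaks, the excess of Setd8-LKO-only acetylation was 12.4 points (95% Newcombe interval 11.5 to 13.2). Away from promoters, Setd8-LKO-only acetylation was found at 22% of 2441 sites and 2.33% of kept peaks. At promoters it was found at 12.6% of 7471 sites and 2.90% of kept peaks. A WT H3K27ac peak was present at 23.4% of the sites away from promoters and at 75.3% of promoter sites. A smaller share of promoter sites could thus be acetylated in Setd8-LKO alone, and shares among sites without a WT peak are not given. Where both lists had a peak, the log2 ratio of the H3K27ac fold enrichment, Setd8-LKO over WT, had a median of 0.16 over 6124 sites with 62.8% above 0, against 0.02 at peaks gained at WT Smc3 and 0.07 at kept peaks. Smc3 strength followed the mark, with a median fold enrichment of 56.5 at sites acetylated in both conditions, 26.6 at sites acetylated in Setd8-LKO alone and 15.0 at sites with no H3K27ac peak, while the CTCF medians of these groups were 11.8, 11.3 and 11.7.

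**Figure D3:**
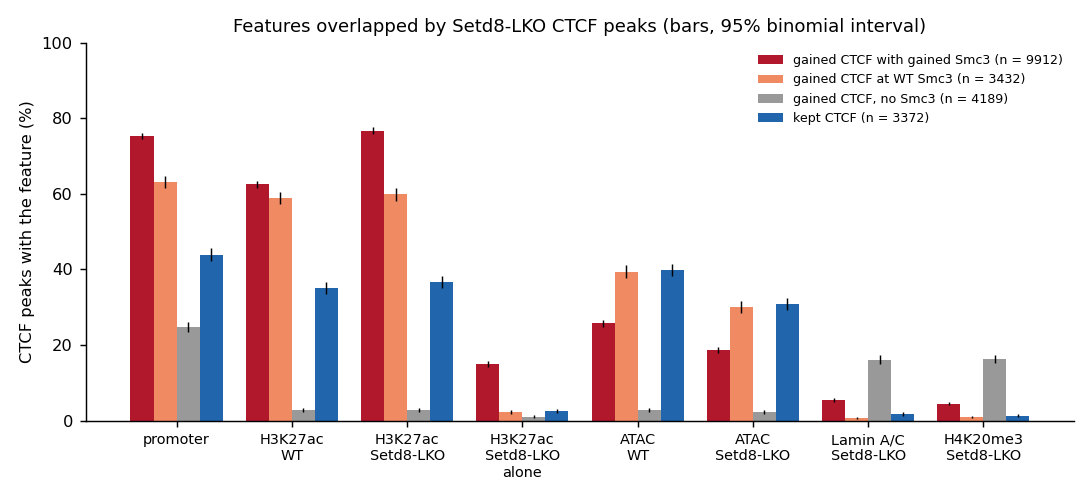
Percent of CTCF peaks of each class that overlap a promoter, a H3K27ac or ATAC peak or a Lamin A/C or H4K20me3 island of the named condition, with 95% binomial intervals. Gained CTCF-Smc3 sites have the highest shares at promoters (75.4%), with Setd8-LKO H3K27ac (76.7%) and with H3K27ac in Setd8-LKO alone (15.0%), while their share with a Setd8-LKO ATAC peak is 18.6% against 19.2% of all CTCF peaks.

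Open chromatin by ATAC-seq was called at 25.8% of gained CTCF-Smc3 sites in WT and at 18.6% in Setd8-LKO, close to the 25.7% and 19.2% of all 20905 CTCF peaks. The shares were 39.4% and 30.1% for peaks gained at WT Smc3, 2.79% and 2.2% for peaks gained without Smc3 and 39.9% and 30.9% for kept peaks. Of the gained CTCF-Smc3 sites, 58.9% overlapped a Setd8-LKO H3K27ac peak without an ATAC peak, against 37.2% of all CTCF peaks. The ATAC list of Setd8-LKO was the shorter of the pair (23386 against 27307 peaks), and where both lists had a peak the log2 ratio of Setd8-LKO over WT had a median of -0.11 at the gained sites and -0.10 at kept peaks. An ATAC peak in Setd8-LKO alone was found at 61 sites (0.615%) and in WT alone at 768 (7.75%), against 0.899% and 7.37% of all CTCF peaks. Lamin A/C islands, broad regions at the nuclear lamina, covered 7.26% of the sites in WT and 5.47% in Setd8-LKO, and H4K20me3 islands 4.50% and 4.52%. The Setd8-LKO shares were a little below those of all CTCF peaks (6.21% and 5.77%), exceeded those of peaks gained at WT Smc3 (0.699% and 0.962%) and of kept peaks (1.72% and 1.30%) and were below those of CTCF peaks gained without Smc3 (16.1% and 16.3%).

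The DNA under the sites was G+C-rich and mostly lacked the CTCF consensus. Windows reaching 100 bp to each side of a summit were scanned, on either strand, for the 12-letter core consensus, allowing 1 mismatch. It was found at 7.05% of 9900 gained CTCF-Smc3 sites on chromosomes (6.55 to 7.57), at 61.6% of kept peaks (59.9 to 63.2), at 75.9% of WT CTCF peaks that were lost, at 34.9% of peaks gained at WT Smc3 and at 13.1% of peaks gained without Smc3. The same windows moved by 2000 bp to either side held it in 2.65% of cases (2.43 to 2.88), and windows of equal length around all protein coding starts in 3.34% (3.11 to 3.59). Neither set matched the sites in G+C content (medians of 46.8% and 58.7% against 68.2%), and the part of base composition in these shares was not tested. The share rose with CTCF strength, from 3.28% of sites with a fold enrichment under 10 to 5.77% between 10 and 20, 19.1% between 20 and 40 and 30.1% of the 239 sites at 40 and over. At kept peaks it did not rise, with 69.1%, 70%, 66.8% and 54.8% in the same bins, so that the sites held the consensus less often in each bin. The intervals at 40 and over were 24.4 to 36.4 at the sites and 52.4 to 57.2 at kept peaks. That bin has no upper limit, and kept peaks reached a fold enrichment of 152 against 91.2 at the sites, so strength was not equal within it. The 698 sites with the consensus had stronger CTCF (median fold enrichment of 15.2 against 11.7) and weaker Smc3 (34.0 against 41.3) than the sites without it, and 63.9% of them were at promoters against 76.3%. Examples with the intact consensus are the C130021I20Rik, Gm26901 and Hsbp1 windows printed above, with CTCF fold enrichments of 84.5, 76.2 and 59.9, besides the AC119181.3 site and a site at the promoter of Dtx2 (60.7).

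**Figure D4:**
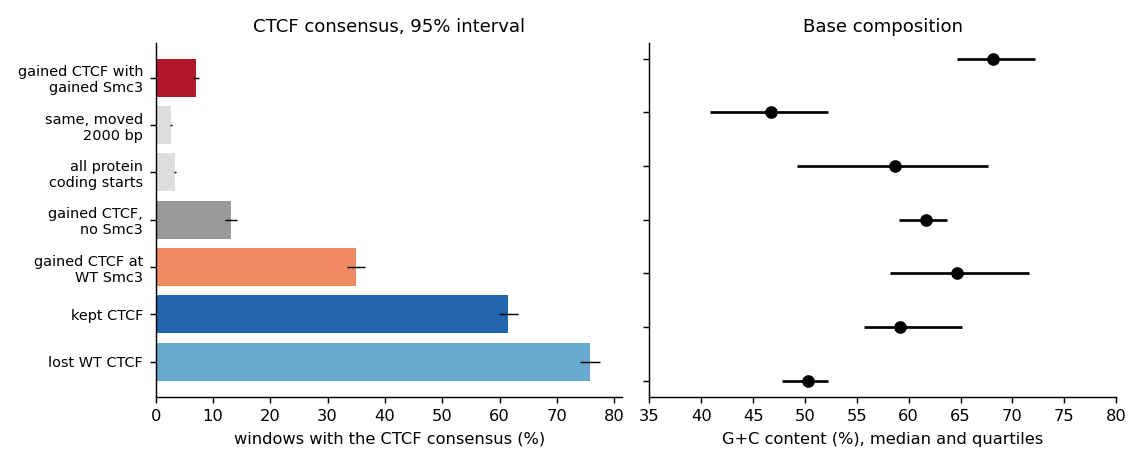
Left, percent of windows within 100 bp of the summit that hold the CTCF core consensus with at most 1 mismatch, with 95% intervals. Right, G+C content of the same windows in percent, with median (point) and quartiles (line). Gained CTCF-Smc3 sites hold the consensus in 7.05% of windows against 61.6% of kept peaks, and have a median G+C content of 68.2%.

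The windows of gained CTCF-Smc3 sites had a median G+C content of 68.2% (quartiles 64.7 and 72.1) and a median of 18 CG pairs, against 46.8% and 2 in the windows moved by 2000 bp, 58.7% and 10 at all protein coding starts, and 59.2% and 8 at kept peaks. By a G+C content over 50% and an observed to expected CG ratio over 0.6, 76.4% of the sites (75.6 to 77.3) were CG-rich, against 47.8% of all protein coding starts and 39.4% of kept peaks. This held for 85.2% of promoter sites and for 49.4% of the others. The GC box GGGCGG, a core element of Sp and Klf factors that itself contains a CG pair, was present on either strand in 49.0% of the sites and in 54.7% of promoter sites, against 40.0% of all coding starts, 28.1% of kept peaks and 5.12% of the moved windows. Other promoter elements were less frequent at the sites than at coding starts in general. The ETS core CCGGAAG was in 5.70% against 9.60%, the CCAAT box in 11.9% against 28.2% and TATAAA in 1.17% against 8.08%. These are matches of letters in a window, on both strands. The windows of the sites were centred on CTCF summits and those of coding starts on the start itself. Their G+C contents differed as well (68.2% against 58.7%). The part of position and base composition in these shares was not tested.

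Gene families differed in how often a promoter held a gained CTCF-Smc3 site, and the shares are read against the 29.7% of all protein coding genes and the 46.6% of genes with a WT H3K27ac promoter. Sites were present at 27 of 79 ribosomal protein genes (Rpl37 with a CTCF fold enrichment of 66.8), 27 of 78 mitochondrial ribosomal protein genes (Mrpl52 with 19.3) and 9 of 39 proteasome genes (Psmd11 with 30.6). They were also at 18 of 39 Hox genes, the homeobox genes that pattern the body axis and are silent in most liver cells, such as Hoxa5 (58.6) and Hoxa10 (33.7), although a WT H3K27ac promoter peak was at 10 of these 39 genes and a Setd8-LKO one at 25. Of 18 imprinted genes found in the annotation, which are expressed from one parental allele, 12 had a site, led by Peg10 (55.2), Peg3 (40.2), Mest (31.9) and Gnas (22.6). Olfactory receptor genes had a site at 2 of 1092 promoters, clustered protocadherin genes at 3 of 56 and replication-dependent histone genes at 9 of 67. None of 24 hepatocyte plasma protein genes had one, although all 24 carried WT H3K27ac at the promoter, whereas 9 of 20 hepatocyte transcription factor genes did (Ppara with 37.2, Foxa1 with 20.3).

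Of 18 CTCF and cohesin genes, 15 of which had a WT H3K27ac promoter, 9 had a site at the promoter (50%, interval 26.0 to 74.0), near the 46.6% of genes with such a promoter. They included Nipbl, the cohesin loader (CTCF 21.3, Smc3 93.3), Smc3 itself (19.7 and 60.3), Pds5b, a regulator of cohesin release (14.2 and 94.0), and Rad21, the subunit that closes the ring (14.2 and 69.8). Sites were at 4 of 8 condensin genes, 9 of 15 nuclear lamina and envelope genes (Banf1 with 29.7, Lbr with 18.3) and 7 of 8 genes that write or read H4K20 methylation, among them Kmt5a (17.2) and Kmt5c (16.3). They were at 15 of 35 DNA replication genes, 6 of 23 mitotic genes, 7 of 24 p53 target genes and 3 of 27 CAR target genes. Among marker lists of other liver cells, 3 of 7 cholangiocyte and 2 of 8 stellate cell genes had a site, and none of 9 Kupffer cell, 8 endothelial and 8 lymphocyte genes.

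RNA levels of the genes at the sites could be followed for the genes that the authors selected by combined false discovery rate and fold change, 3900 in the table of Setd8-LKO + TCPOBOP and 719 in that of WT + TCPOBOP, both against the same 5 untreated WT libraries. Of these, 3726 and 679 passed a filter on low counts. Shares called are therefore high for any group of listed genes, and a gene not listed was not analysed here. The study describes the libraries of a group as biological replicates collected on the same date, and p-values measure the spread between them. Kmt5a, the targeted gene, was higher and not lower in the libraries labelled Setd8-LKO, with normalised counts of 613, 567, 761, 563 and 715 in untreated WT and 1341, 1465, 1338 and 1313 in Setd8-LKO + TCPOBOP. The groups did not overlap (log2 fold change 1.08 ± 0.14 SE, edgeR quasi-likelihood test, adjusted p = 0.00045). Under DESeq2 size factors from the listed genes its log2 fold change was 0.27 and was not called. Counts over the whole gene do not resolve the deleted exon.

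More of the genes with a gained CTCF-Smc3 site at the promoter were higher than were lower in Setd8-LKO + TCPOBOP. Of 1087 such genes tested, 663 were higher than in untreated WT (61.0%) and 288 lower (26.5%) by the edgeR quasi-likelihood test at an adjusted p under 0.05 and a change of at least 2-fold. Over all 3726 tested genes 50.5% were higher and 34.6% lower. Listed genes without any Setd8-LKO CTCF peak at the promoter gave 46.2% and 37.0%, genes at peaks gained at WT Smc3 gave 41.7% and 46.9%, and genes at peaks gained without Smc3 gave 61.4% and 28.9%. The median log2 fold change was 1.32 at the sites and 1.16 over all tested genes. The groups of libraries did not overlap for 642 of the higher genes (59.1% of those tested at the sites) and 282 of the lower (25.9%), against 48.8% and 34.1% of all tested genes. The split depended on scaling. When DESeq2 size factors from the listed genes replaced those of the authors, the median gene fell by 0.82 in log2 fold change and the calls became 272 higher and 316 lower. Under TMM over the listed genes the calls were 675 higher and 293 lower, and by DESeq2 with the authors' factors 727 and 307. The file headers divide the libraries into run A and run B. Within run A (3 untreated and 1 Setd8-LKO library) 88 genes were higher and 12 lower, within run B (2 and 3 libraries) 351 and 207, and with the run as a term in the model 609 and 254. The fit within run A assumes that its lone Setd8-LKO library varies like the untreated ones, and its low counts are not read as a dependence on the run. Calls over all tested genes under these alternatives are not given here, so the sites cannot be set against all tested genes there.

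In WT + TCPOBOP, 171 genes at the sites were tested, of which 87 were higher (50.9%) and 25 lower (14.6%), close to the 51.4% and 16.2% of all 679 tested genes. The groups did not overlap for these 87 and 25 genes, and over all tested genes calls without overlap made up 51.3% and 16.1%. Under DESeq2 size factors the calls were 13 higher and 49 lower, with a shift of the median gene by -1.17 in log2 fold change. Within run A (3 and 3 libraries) 16 were higher and 1 lower, within run B (2 and 2) 39 and 9, and with the run as a term 97 and 27. The number of lower genes depended on single libraries. It was 16, 13 and 14 without untreated library 2, 3 or 5, and 13, 14, 11, 15 and 10 without WT + TCPOBOP library 1, 2, 3, 4 or 5. For these alternatives too, calls over all tested genes are not given. The WT + TCPOBOP livers had no chromatin map, so whether the sites were gained in them was not measured.

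Acetylation and RNA were set side by side over all annotated protein coding genes, counting a gene as higher only if it was listed and called. Among genes with H3K27ac at the promoter in both conditions, 9.48% of 5548 with a gained CTCF-Smc3 site were higher in Setd8-LKO + TCPOBOP and 4.49% lower, against 7.75% and 7.61% of 6193 without a site. Where H3K27ac was present in Setd8-LKO alone, the order was the opposite for the higher genes, with 8.98% of 646 genes with a site (6.89 to 11.5) against 15.1% of 510 without one (12.1 to 18.5). Few of either were lower, at 1.86% and 1.76%. Without H3K27ac in any list 7.01% of 314 genes with a site and 4.06% of 8532 without were higher.

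The genes at the sites with the largest rises had little RNA in untreated liver. Mybl1, a Myb family transcription factor, had normalised counts of 3, 3, 11, 16 and 13 in untreated WT and 1017, 1074, 700 and 540 in Setd8-LKO + TCPOBOP (log2 fold change 6.44 ± 0.46 SE, edgeR adjusted p = 1.4e-05). Epdr1, an ependymin-related glycoprotein, had 11, 4, 6, 6 and 7 against 491, 478, 292 and 461 (5.98 ± 0.29, edgeR adjusted p = 2.0e-06), and Hr, the corepressor named hairless, 7, 4, 9, 22 and 10 against 790, 729, 581 and 386 (5.86 ± 0.41, edgeR adjusted p = 1.1e-05). In each of these the lowest Setd8-LKO library stood far above the highest untreated one. Lif, a cytokine of the interleukin-6 family, was at 0 in all 5 untreated libraries and at 53, 70, 14 and 46 in Setd8-LKO + TCPOBOP (edgeR adjusted p = 0.0022), and no fold is given against 0. Pkp1 (plakophilin, of desmosomes), Cacna1b (a neuronal calcium channel subunit) and the noncoding genes Gm26568 and D630002J18Rik were likewise at 0 to 3 in untreated WT, and at 89 to 222, 45 to 132, 46 to 60 and 15 to 54 in Setd8-LKO + TCPOBOP.

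**Figure D5:**
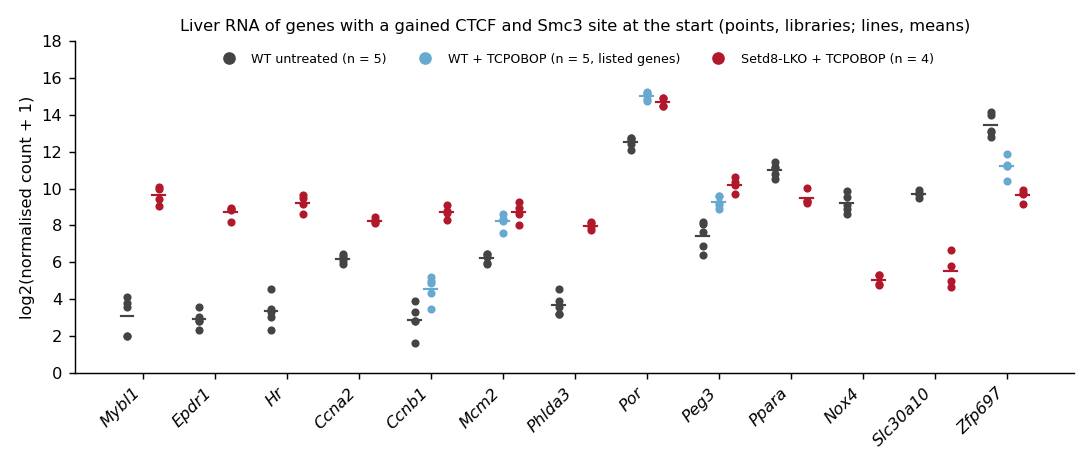
Normalised RNA counts as log2(count + 1) of genes with a gained CTCF-Smc3 site at the start, by library (points) and group mean (lines), with WT + TCPOBOP shown for the genes listed there. Mybl1, Epdr1, Hr and Ccnb1 rise from low counts in Setd8-LKO + TCPOBOP and Nox4, Slc30a10 and Zfp697 fall, each without overlap between untreated WT and Setd8-LKO libraries.

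Of the genes that fell most, 3 were well expressed in untreated liver. Zfp697, a zinc finger gene, had normalised counts of 16447, 18137, 9078, 7022 and 8672 in untreated WT and 859, 837, 578 and 967 in Setd8-LKO + TCPOBOP (log2 fold change -3.87 ± 0.35 SE, edgeR adjusted p = 5.0e-05). It was also lower in WT + TCPOBOP, with 2407, 1342, 2513, 3723 and 2436 (-2.26 ± 0.34, edgeR adjusted p = 0.0065). Slc30a10, a manganese exporter, had 881, 971, 831, 849 and 729 against 54, 30, 100 and 24 (-4.03 ± 0.40, edgeR adjusted p = 8.7e-05). Nox4, a NADPH oxidase, had 949, 745, 396, 479 and 552 against 38, 26, 38 and 27 (-4.26 ± 0.31, edgeR adjusted p = 1.5e-05). The groups of these genes were far apart in every library. Pitx3, Trhde, Cspg5, Rfx4 and Elavl4, mostly known from the nervous system, fell from means of 94.6, 53, 74.6, 46 and 15.8 to means of 3.25, 2.5, 4, 3 and 1.25. Elavl4 carried one of the stronger CTCF peaks of the set (56.5).

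In WT + TCPOBOP the largest rises at the sites were those of the noncoding gene B430219N15Rik, from 19 to 58 in untreated WT to 1887 to 2859 (log2 fold change 6.04 ± 0.33 SE), of Fndc5, the precursor of irisin, from 2 to 12 to 246 to 514 (6.04 ± 0.44), and of the phosphate transporter gene Slc34a2, from 1 to 12 to 110 to 246 (4.70 ± 0.51). The largest falls were those of Olig1, a helix-loop-helix transcription factor, from 33 to 104 to 1 to 9 (-3.72 ± 0.48), of Hectd2, a ubiquitin ligase gene, from 187 to 540 to 44 to 59 (-3.02 ± 0.30), and of Zfp697. All of these groups were apart, with edgeR adjusted p-values between 6.6e-06 and 0.0065.

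Cell cycle genes at the sites rose together in Setd8-LKO + TCPOBOP. Of the 23 mitotic genes all 23 were listed and higher, 6 of them with a site, whereas in WT + TCPOBOP none of 5 tested passed the threshold. Ccnb1, the mitotic cyclin B1, had normalised counts of 2, 6, 9, 6 and 14 in untreated WT, 36, 10, 19, 28 and 30 in WT + TCPOBOP, and 447, 313, 559 and 410 in Setd8-LKO + TCPOBOP (log2 fold change 5.80 ± 0.38 SE, edgeR adjusted p = 9.1e-06). Ccna2, cyclin A2, had 80, 73, 85, 66 and 58 against 347, 288, 308 and 279 (2.08 ± 0.17, edgeR adjusted p = 3.1e-05) and one of the strongest CTCF peaks among these genes, at 45.2. Ube2c and Mad2l1, which act in mitotic exit and in the spindle checkpoint, rose by 3.81 ± 0.76 and 2.77 ± 0.30 on the log2 scale. Of 16 DNA replication genes tested 15 were higher, including 5 of 5 with a site, such as the helicase subunit Mcm2 (2.56 ± 0.26, and 2.04 ± 0.23 in WT + TCPOBOP) and Rpa2 (1.31 ± 0.25). All 6 condensin genes tested were higher, and 3 of these, Ncapg (1.35 ± 0.26), Ncapd2 (1.78 ± 0.20) and Smc4 (1.47 ± 0.24), had a site. These lists were also mostly higher without a site. Under DESeq2 size factors 22 of 23 mitotic, 5 of 16 replication and 3 of 6 condensin genes were called higher. Of the named genes, Ncapg (0.55), Ncapd2 (0.96), Smc4 (0.64) and Rpa2 (0.44) then fell below the log2 limit of 1. Mcm2 fell below it in WT + TCPOBOP (0.86) but not in Setd8-LKO + TCPOBOP (1.70). Ccnb1 (5.05), Ccna2 (1.27), Ube2c (3.08) and Mad2l1 (1.95) in Setd8-LKO + TCPOBOP stayed above it.

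Of 13 p53 target genes tested all were higher, 4 with a site, among them Phlda3, an inhibitor of Akt signalling, with 8, 8, 11, 22 and 14 against 282, 236, 213 and 289 (log2 fold change 4.31 ± 0.30 SE, edgeR adjusted p = 1.1e-05), and Zmat3 (1.48 ± 0.25). CAR target genes were higher in 21 of 22 cases in Setd8-LKO + TCPOBOP and in 24 of 24 in WT + TCPOBOP. Of the 3 with a site, Por, the electron donor of cytochromes P450, rose by 2.17 ± 0.20 and 2.51 ± 0.18 in the respective treatments, Alas1, the first enzyme of haem synthesis, by 1.14 ± 0.21 and 1.88 ± 0.16, and the transporter gene Abcc4 by 3.3 ± 0.29 and 1.64 ± 0.21, all on the log2 scale. Under DESeq2 size factors 7 of the 13 p53 target genes were higher, with Zmat3 at a log2 fold change of 0.67, as were 13 of 22 and 14 of 24 CAR target genes, with Alas1 at 0.37 and 0.70 and Abcc4 in WT + TCPOBOP at 0.46. Replication-dependent histone genes were higher in 10 of 10 tested cases, none of them with a site, and in 0 of 7 under DESeq2 size factors, while 4 of 5 CTCF and cohesin genes tested were higher, both of those with a site included. Of the imprinted genes at a site, Peg3 was higher in both treatments (2.65 ± 0.36 and 1.71 ± 0.34), but in WT + TCPOBOP its value was 0.53 under DESeq2 size factors and was not called. Peg10 spread from 6 to 111 in untreated WT and from 8 to 24 in Setd8-LKO + TCPOBOP and was not called (edgeR adjusted p = 1). Lmna, which encodes Lamin A/C and had 5 sites at its promoters, had 763, 859, 751, 989 and 673 in untreated WT and 1901, 1681, 1912 and 2163 in Setd8-LKO + TCPOBOP (1.25 ± 0.15, edgeR adjusted p = 0.00031). Under DESeq2 size factors its log2 fold change was 0.44 and was not called.

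Hepatocyte genes moved the other way. All 3 hepatocyte transcription factor genes tested were lower in Setd8-LKO + TCPOBOP, 2 of them with a site. Ppara, the nuclear receptor of fatty acid oxidation, had normalised counts of 2807, 2336, 1757, 2222 and 1493 in untreated WT and 636, 651, 601 and 1063 in Setd8-LKO + TCPOBOP (log2 fold change -1.53 ± 0.24 SE, edgeR adjusted p = 0.0019). Of 12 plasma protein genes tested 11 were lower, and none had a site. Markers of liver cell types moved with these comparisons. Of 7 hepatocyte markers 5 were listed and all were lower, with a summed normalised count of 1100939 to 1833451 in untreated WT and 465802 to 654455 in Setd8-LKO + TCPOBOP. Of 8 stellate cell markers 4 were listed and higher (1901 to 2546 against 4586 to 9377), and of 7 cholangiocyte markers 6 were listed, 5 tested and 4 higher (427 to 690 against 1627 to 7466). Under DESeq2 size factors 2 of the 4 stellate cell and 3 of the 5 cholangiocyte markers were called higher. Of 9 Kupffer cell markers 1 was listed (73 to 272 against 304 to 489, not called), of 8 lymphocyte markers 2 were listed with 1 lower (23 to 66 against 10 to 15), and of 8 endothelial markers none. No marker of the listed sets was at 0 as a sum in any library. In whole liver, fewer cells of a type and less RNA per cell cannot be told apart, and the part of cell composition in the calls was not tested. The cholangiocyte marker Epcam, which carried a site, had 19, 25, 30, 23 and 12 against 297, 291, 63 and 160 (3.21 ± 0.44, edgeR adjusted p = 0.00075), Krt19 11 to 66 against 40 to 125 (not called), and the stellate cell marker Lrat fell in WT + TCPOBOP by 1.22 on the log2 scale.

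Among 113 genes at the sites that were tested in both comparisons, 6 were called in opposite directions in Setd8-LKO + TCPOBOP and WT + TCPOBOP, a share of 5.31% against 6.05% of all 463 genes tested in both (28 genes), and they are named after their values were seen. Of these, 4 encode enzymes of cholesterol synthesis. Cyp51, lanosterol demethylase, had 3120, 3022, 2192, 4135 and 3130 in untreated WT, 8254, 8166, 7584, 8177 and 7480 in WT + TCPOBOP and 1025, 1551, 1357 and 1201 in Setd8-LKO + TCPOBOP, and the 3 groups did not overlap. Its log2 fold changes were 1.35 ± 0.17 SE and -1.28 ± 0.20 (edgeR adjusted p = 0.0024 and 0.0020). Fdft1 (squalene synthase), Lss (lanosterol synthase) and Msmo1 (sterol methyl oxidase) had 1.30 ± 0.20, 1.34 ± 0.19 and 1.58 ± 0.23 in WT + TCPOBOP and -1.40 ± 0.24, -1.04 ± 0.21 and -1.5 ± 0.26 in Setd8-LKO + TCPOBOP. Efna3, an ephrin ligand, rose by 2.1 ± 0.19 and fell by 2.79 on the log2 scale (SE 0.37), and Acot2, a mitochondrial acyl-CoA thioesterase whose reads may be shared with its close paralog Acot1, fell by 1.93 (SE 0.33) in WT + TCPOBOP and rose by 3.19 ± 0.20 in Setd8-LKO + TCPOBOP. The comparisons share the untreated libraries. Under DESeq2 size factors the changes in WT + TCPOBOP kept their sign but shrank to 0.18 for Cyp51, 0.14 for Fdft1, 0.18 for Lss, 0.42 for Msmo1 and 0.93 for Efna3.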

How the data were processed

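Peak lists, island lists and RNA tables were used as deposited. The authors trimmed reads with Trimmomatic 0.39, aligned them to mm10 with HISAT2, discarded duplicates and reads that mapped poorly or to blacklisted regions, and reduced ChIP-seq and CUT&Tag reads in proportion to the smallest sample. They called peaks with MACS2 2.2.7.1 at a p cutoff of 1e-13 and islands with SICER2. The deposited peak lists give the fold enrichment (a ratio over local background) and the -log10 p of each peak, and the deposited island lists give a score, of which only the positions were used. One list per condition was used, the pooling of replicates is not given in the sources used here, and lists hold no read depth. The RNA tables of the authors hold raw counts and normalised counts (a signal scaled by 1 factor per library) from HISAT2 and metaseqR, for genes selected by the authors. Their p-value, FDR and fold change columns were not used, nor were 114 columns of transformed values of the same libraries. Counts of listed genes summed to 5734065 to 12780869 per library over 3900 genes and 1389901 to 3706582 over 719, which is not the library depth.

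Sites were classed by overlaps of at least 1 bp. Promoters lay within 1000 bp of a transcript start of GENCODE M21. Windows reached 100 bp to each side of a summit in GRCm38.p6. Shares carry 95% Clopper-Pearson intervals and their differences Newcombe intervals. Counts were fitted on the whole tables with edgeR 4.0.16 in R 4.3.3 (glmQLFit, glmQLFTest, filterByExpr with a minimum count of 10, the authors' factors as scaling), with Benjamini-Hochberg adjustment over the 55450 annotated genes, since the tables list selected genes only. A gene was called when its adjusted p was under 0.05 and its log2 fold change reached 1 in either direction, and the procedure was tested on simulated data. Peaks were handled in Python 3.11.15. DESeq2 1.42.0, other scalings, overlaps, thresholds, promoter widths and left-out libraries served as alternatives. Fits within each run were chosen after seeing the data.

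The sites and gene lists were chosen with earlier results of these data known. The text names the 6 strongest promoter sites, the 4 strongest others, the 4 with the strongest Smc3, the 5 strongest with the intact consensus and the 3 nearest the limit of the rule on each side. It names the 8 genes with the largest rise and fall in Setd8-LKO + TCPOBOP (3 each in WT + TCPOBOP) among called genes with groups that do not overlap, up to 4 genes with the strongest sites per list, and Kmt5a.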

Additional observations from a re-analysis of the deposited data

Results flagged for a closer look

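Single libraries stood apart from their group by a gap over Dixon's critical value in 9 of 111 groups of named genes, where chance gives about 1 in 20. In untreated WT these were library 4 for Msmo1 (5650 normalised counts, median 3199), library 5 for the mitotic gene Ube2c (93, median 10), library 2 for D630002J18Rik (3, the others at 0) and library 3 for Gm26568 (3, the others at 0). In Setd8-LKO + TCPOBOP they were library 3 for Epdr1 (292, median 469.5) and Cspg5 (8, median 3) and library 4 for Ppara (1063, median 643.5). In WT + TCPOBOP they were library 2 for Acot2 (54, median 22) and library 4 for Hectd2 (59, median 45).

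Of the genes at gained CTCF-Smc3 sites, 6 were called in opposite directions after TCPOBOP in the different genotypes. The log2 fold changes from untreated WT, Setd8-LKO + TCPOBOP first and WT + TCPOBOP second, were 3.19 and -1.93 for Acot2, -1.28 and 1.35 for Cyp51, -2.79 and 2.1 for Efna3, -1.40 and 1.30 for Fdft1, -1.04 and 1.34 for Lss, and -1.5 and 1.58 for Msmo1. Every library of one treated group lay above all untreated libraries and every library of the other below them. The difference between the treated groups was not tested, because the genes were picked for it.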

How the results depend on the processing

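The number of gained CTCF-Smc3 sites was 1016 with the Setd8-LKO lists cut to the length of the WT lists. Those sites had shares of 83.7% for promoters, 85.2% for Setd8-LKO H3K27ac, 31.8% for ATAC, 3.74% for Lamin A/C islands and 17.5% for the consensus. With an overlap of at least 50% of the CTCF peak the shares were 76.8%, 78.2%, 20.9%, 4.94% and 10.1%. Placing sites by summits gave 77.7% for H3K27ac, and a -log10 p of at least 20 gave 19.7% for ATAC and 7.90% for the consensus. Promoters within 500 bp or 2500 bp gave 70.0% or 81.4%, and protein coding transcripts 71.5%. The consensus share was 0.768% with no mismatch, 39.1% with 2, 4.36% within 50 bp of the summit and 10.0% over whole peaks. Peaks within 500 bp gave 79.0% for H3K27ac and 28.7% for ATAC, and WT Lamin A/C islands 7.26%.

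In Setd8-LKO + TCPOBOP, DESeq2 size factors left 272 genes at the sites higher, and the runs alone left 88 (A) and 351 (B) higher and 12 lower (A). In WT + TCPOBOP, 13 genes were higher under DESeq2 size factors and under TMM over the listed genes, and 16 and 39 in runs A and B. Lower were 49 under either scaling, 45 by DESeq2 with the authors' factors, 51 with adjustment over the listed genes alone, 1 and 9 in runs A and B, and 10 to 21 with single libraries left out. Of 22 results for genes with the largest changes none reversed. In run A alone 12 lost the call, 8 of them against its lone Setd8-LKO library, which is assumed to vary like the untreated ones, so that this fit says little on stability. In run B alone 2 lost it, and under the replicate block 2. In the other alternatives none lost it, but without untreated library 1, 2, 3 or 4 only 21 of the 22 results had a value.

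The replicate numbers did not pair the libraries (correlations of deviations from -0.14 to 0.07 in Setd8-LKO and from -0.41 to 0.22 in WT + TCPOBOP, and not every library correlated best with its own number). With the replicate number as a block, 438 genes at the sites were higher and 218 lower in Setd8-LKO + TCPOBOP and 33 and 2 in WT + TCPOBOP. Calls over all tested genes are not given for this setting.

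One list per condition gives peaks no replicate error, and their number moves with the level of each list.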
